A study of Mus musculus with 4 samples.

Results

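The naive pluripotency factors examined here were 10 transcriptional regulators, Esrrb, Klf2, Klf4, Klf5, Tfcp2l1, Zfp42, Nr0b1, Prdm14, Dppa3 and Tbx3. They were taken by name, with older symbols allowed (Tfcp2l1 carries the older symbol Tcfcp2l1 in the annotation), and all 10 were found among the 37620 genes of the raw count table, 9 of them among the 15462 genes that passed the authors' filter on low counts, with Dppa3 the one that did not pass. RNA-seq was done on R1 mouse embryonic stem cells (ESCs, a male line of 129 background) in 4 conditions with 1 library each: WT in serum/LIF, Cripto KO in serum/LIF, WT in F/A and Cripto KO in F/A. Cripto, the product of Tdgf1, is a membrane-bound co-receptor of Nodal signalling. Serum/LIF is ESC medium with fetal bovine serum and the cytokine LIF, and F/A is serum-free N2B27 medium with bFGF and 20 ng/ml Activin A, in which cells seeded at low density were kept for 6 days to become epiblast stem cells (EpiSCs). The study worked with 2 Cripto KO clones, and the labels do not say which of them was sequenced, so a genotype is here 1 clone, in 1 culture, in 1 library.

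In the preimplantation mouse epiblast and in ESCs, these factors and the core factors Oct4, Sox2 and Nanog sustain each other's transcription in a network fed by LIF through Stat3 and by Wnt through relief of Tcf7l1 repression. When the epiblast implants, or when ESCs are moved to FGF and Activin, the naive factors are shut down while Oct4 and Sox2 are retained, and Fgf5 and Otx2 mark the formative and primed epiblast. Esrrb is an orphan nuclear receptor, Nr0b1 (Dax1) an orphan nuclear receptor that acts mostly as a corepressor, Klf2, Klf4 and Klf5 are zinc finger factors with overlapping targets, Tfcp2l1 is a CP2 family factor downstream of Stat3, Zfp42 (Rex1) is a zinc finger protein widely used as a reporter of the naive state, Prdm14 is a PR domain protein that represses FGF signalling and DNA methyltransferase genes, Tbx3 is a T-box factor, and Dppa3 (Stella) protects DNA methylation marks in the early embryo.

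To show what the starts of these genes share, the 250 bases before the transcription start were read from RefSeq (GRCm38.p6) for the 6 members with an entry, Esrrb, Klf2, Klf4, Nr0b1, Tfcp2l1 and Zfp42, which gave 7 windows because Esrrb has 2 starts. Klf5, Prdm14, Dppa3 and Tbx3 had no entry. The windows of Zfp42, Esrrb and Nr0b1, the members with the deepest changes described below, are printed 5' to 3' on the gene's strand, with capitals for the letters CACCC, the core of the box bound by Klf factors, or their reverse complement.
Zfp42, chr8:43307010-43307259, minus strand: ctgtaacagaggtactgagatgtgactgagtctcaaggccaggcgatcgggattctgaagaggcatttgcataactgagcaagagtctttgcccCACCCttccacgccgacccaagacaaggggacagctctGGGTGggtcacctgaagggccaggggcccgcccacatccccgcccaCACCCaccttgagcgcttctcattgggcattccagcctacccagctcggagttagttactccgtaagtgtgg
Esrrb, chr12:86360867-86361116, plus strand: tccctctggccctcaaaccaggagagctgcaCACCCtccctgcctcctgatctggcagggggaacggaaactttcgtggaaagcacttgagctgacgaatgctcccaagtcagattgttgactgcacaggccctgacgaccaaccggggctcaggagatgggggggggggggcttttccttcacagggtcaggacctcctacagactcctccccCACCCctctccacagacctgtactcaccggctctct
Esrrb, chr12:86421394-86421643, plus strand: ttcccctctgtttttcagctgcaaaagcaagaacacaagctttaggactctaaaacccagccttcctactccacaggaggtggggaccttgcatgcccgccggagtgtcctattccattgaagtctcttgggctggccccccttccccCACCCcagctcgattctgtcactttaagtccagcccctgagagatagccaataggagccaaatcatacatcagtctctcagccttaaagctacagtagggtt
Nr0b1, chrX:86191525-86191774, plus strand: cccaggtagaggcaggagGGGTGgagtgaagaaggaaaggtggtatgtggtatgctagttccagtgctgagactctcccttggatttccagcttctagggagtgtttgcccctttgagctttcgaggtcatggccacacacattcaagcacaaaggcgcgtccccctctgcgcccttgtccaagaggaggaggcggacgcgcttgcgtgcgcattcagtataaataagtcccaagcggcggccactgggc
CACCC occurred 3 times in the Zfp42 window, 2 times and 1 time in the Esrrb windows, 1 time each in those of Nr0b1 and Klf2, and not in those of Klf4 and Tfcp2l1, so 5 of 7 windows held it, against 52.0% of the 32851 promoter windows in the table. The letters TCAAGGTCA, which Esrrb binds (0.387% of all windows), TTCCNGGAA, which Stat3 binds (0.913%), and GCCATNTTG, which Yy1 and Zfp42 bind (1.33%), were searched on both strands and were found in none of the 7 windows. The windows also differed in base composition, from 52.0% G and C with 3 CG dinucleotides at the second Esrrb start to 74.0% and 32 CG dinucleotides at Klf4, while the medians of all windows were 52.4% and 6. A match is only a match of letters, and these windows hold none of the distal enhancers.

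The 4 libraries held between 15230856 and 17315442 counts. Tdgf1, the targeted gene, had 1081 cpm (raw counts scaled to the library total) in WT and 58.1 in Cripto KO cells in serum/LIF, and 103 in WT and 5.46 in Cripto KO cells in F/A, in the direction of the labels in both cultures. In the Cripto KO F/A library nearly all counts were even (3 of 18700 detected genes had an odd count, or 0.0160%, against 53.1% to 53.6% in the other libraries), so its counts were divided by 2 wherever a counting interval was computed, and its detection floor was 6 counts (0.381 cpm) in place of 3 (0.173 to 0.197 cpm). With 1 library per condition there is no replicate check of any difference and no p-value. The intervals are 95% Clopper-Pearson intervals that cover counting error only, and a gene is called lower or higher where its quantile-normalized value differed by at least 2-fold.

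In WT cells in serum/LIF, Zfp42 and Esrrb were the most abundant members on every scale. Zfp42 (ENSMUSG00000051176, NCBIM37 chr8:44380422-44392363) stood at 1147 cpm and Esrrb (ENSMUSG00000021255, chr12:87702067-87862578) at 907 cpm, ranks 69 and 97 of the 15462 genes that passed the filter. Per transcript length (RPKM, from the median length of the annotated transcripts), the order in WT serum/LIF was Zfp42 at 637, Esrrb at 384, Klf4 at 219, Klf2 at 192, Klf5 at 146, Tbx3 at 145, Nr0b1 at 129, Tfcp2l1 at 74.1, Prdm14 at 16.9 and Dppa3 at 0.758. Klf5 and Tbx3 were level within counting error, and the spread between cultures is unknown for all of them. In Cripto KO serum/LIF the first 4 kept their order and Nr0b1 (146 RPKM) stood above Klf5 (123) and Tbx3 (81.0). Dppa3, with 10 counts in WT and 13 in Cripto KO cells, was thus barely detected already in serum/LIF, and the remaining 9 members exceeded 1 cpm in both serum/LIF libraries.

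In F/A the summed level of the 10 members was 117 cpm in WT and 92.1 cpm in Cripto KO cells, against 4557 and 4110 cpm in serum/LIF. What remained was made up differently. Esrrb and Zfp42 together held 45.1% of the members' cpm in WT serum/LIF and 2.31% in WT F/A, whereas Klf5 and Tbx3 went from 16.7% to 58.2%, and in Cripto KO cells from 12.1% to 68.8%. Members at 1 cpm or more numbered 6 in WT F/A and 4 in Cripto KO F/A. Per length, Klf5 led in both F/A libraries (28.4 RPKM in WT and 17.1 in Cripto KO), followed by Tbx3 (5.42 and 9.70), while Zfp42, first in serum/LIF, stood at 1.02 and 0.494.

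**Figure D1:**
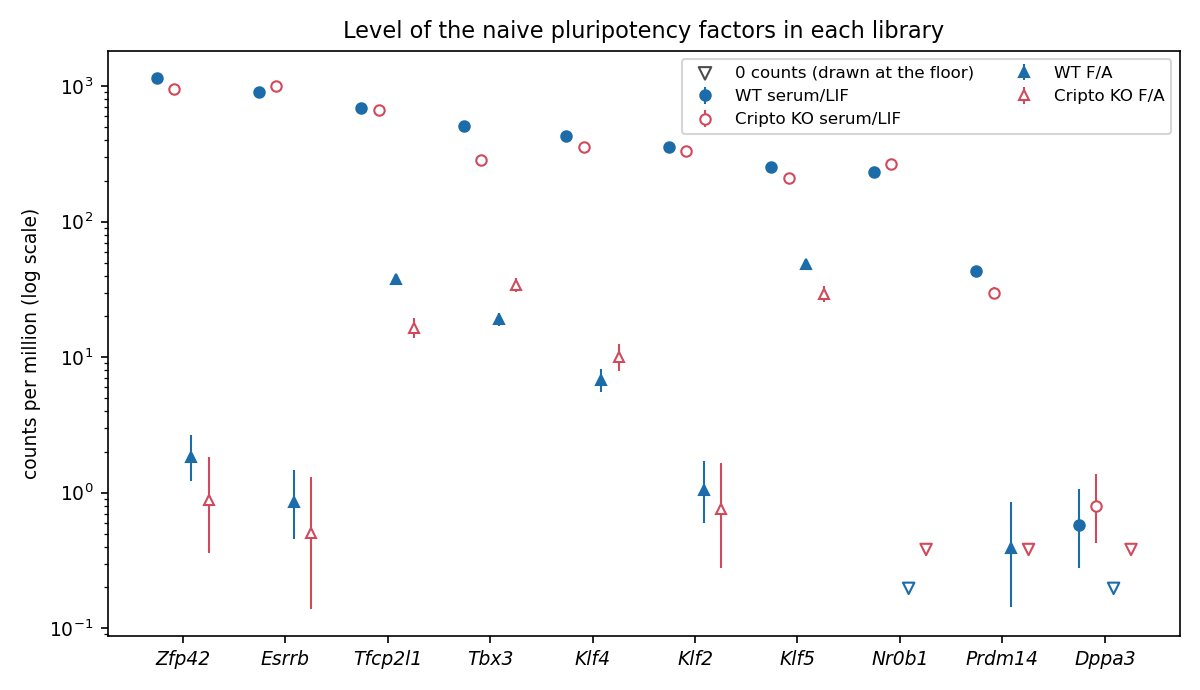
Level (cpm) of the 10 factors in each library, on a log axis, with 95% counting intervals (smaller than the symbol where not visible) and open downward triangles at the detection floor where the count was 0. The serum/LIF points of 9 genes lie between 29.9 and 1147 cpm, and the F/A points of each gene lie below its own serum/LIF points.

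The first comparison asked how far the naive factors go down when WT cells are moved from serum/LIF to F/A. All 9 members that passed the filter were lower in F/A by more than 2-fold, their median being -6.84 on the log2 scale, where 20.9% of all 15462 genes were lower and 22.1% higher by at least 2-fold and the median gene stood at -0.07. Nr0b1 had 4045 counts in serum/LIF and 0 in F/A, 1186-fold lower if F/A is put at the floor. Its counting interval allows a ratio of F/A to serum/LIF of up to 0.00104. It was not detected in either F/A library. Esrrb, Nr0b1 and Prdm14, under 1 cpm in F/A in both genotypes, and Klf2 and Zfp42, under 1 cpm in Cripto KO F/A, passed the filter through their serum/LIF levels, so the counts of members and their medians are a description only, in WT and in Cripto KO cells.

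Esrrb had 15699 counts in serum/LIF and 13 in F/A, 1008-fold lower (log2 change -9.98, interval -10.96 to -9.28). Zfp42 had 19853 and 28 counts, 596-fold lower (log2 change -9.22, interval -9.87 to -8.75). With 0 set to 0.5, these were the 19th and 33rd lowest changes of the table, so the markers most used to report the naive state were also among the genes that differed most between the cultures. Of the Zfp42 transcript, 35.1% of all stretches of 50 bases and 14.5% of 100 bases occur a second time in the genome, on chromosome 15, so reads from that copy could be shared with Zfp42 depending on how multiple matches were treated. The same limit holds for Dppa3 (25.1% of 50 bases and 0% of 100) and Klf4 (11.8% and 1.19%). In the other members at most 0.456% of the stretches of 50 bases occur elsewhere.

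The 3 Klf factors separated from each other. Klf2 (ENSMUSG00000055148, chr8:74842932-74845555) had 6136 counts in WT serum/LIF and 16 in WT F/A, 340-fold lower (log2 change -8.41, interval -9.21 to -7.70). Klf4 (ENSMUSG00000003032, chr4:55540013-55545347) had 7372 and 103 counts, 65.2-fold lower (log2 change -6.03, interval -6.27 to -5.70). Klf5 (ENSMUSG00000005148, chr14:99697910-99712624) had 4351 and 744 counts, 5.45-fold lower (log2 change -2.45, interval -2.48 to -2.25), the smallest change of the 9. The 3 intervals do not overlap, and among the summed RPKM of the 3 genes the share of Klf5 was 26.2% in WT serum/LIF and 87.5% in WT F/A, while that of Klf2 was 34.5% and 1.75%.

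Tbx3 (ENSMUSG00000018604, chr5:120120678-120134733) had 8806 counts in serum/LIF and 290 in F/A, 27.6-fold lower (log2 change -4.79, interval -4.91 to -4.57). Tfcp2l1 (ENSMUSG00000026380, chr1:120524522-120581744) had 11885 and 576 counts, 18.2-fold lower (log2 change -4.18, interval -4.31 to -4.06). Prdm14 (ENSMUSG00000042414, chr1:13103538-13117244) had 749 and 6 counts, 114-fold lower (log2 change -6.84, interval -8.23 to -5.65). Tbx3 and Tfcp2l1 therefore stayed well above the floor in F/A, and Prdm14 did not. Dppa3 (ENSMUSG00000046323, chr6:122576428-122580290) had 10 counts in serum/LIF and 0 in F/A, which allows a ratio of F/A to serum/LIF of up to 0.507.

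In Cripto KO cells the same move gave the same direction for every member. All 9 were again lower by more than 2-fold, where 19.4% of all genes were lower and 19.9% higher, and their median log2 change was -8.52, or -6.30 where a gene at 0 is put at its floor. Put at the floor in F/A, Nr0b1 (4300 counts to 0) was 694-fold lower and Prdm14 (487 to 0) 78.6-fold lower. Their counting intervals allow ratios of F/A to serum/LIF of up to 0.00177 and 0.0157. Esrrb had 16258 counts in Cripto KO serum/LIF and 8 in F/A, 1625-fold lower (log2 change -10.67, interval -12.82 to -9.59), Zfp42 had 15561 and 14 counts, 938-fold lower (-9.87, interval -11.39 to -9.03), and Klf2 had 5420 and 12 counts, 368-fold lower (-8.52, interval -10.22 to -7.65). For these genes, at or near the floor in F/A, the depth sets how low a value can be read. Dppa3 had 13 and 0 counts.

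The members at 1 cpm or more in Cripto KO F/A were Tfcp2l1, Klf4, Tbx3 and Klf5. Tfcp2l1 had 10926 counts in serum/LIF and 260 in F/A, 40.8-fold lower (log2 change -5.35, interval -5.61 to -5.10). Klf4 had 5803 and 158 counts, 36.0-fold lower (-5.17, interval -5.49 to -4.83). Tbx3 had 4622 and 536 counts, 8.62-fold lower (-3.11, interval -3.24 to -2.88), and Klf5 had 3436 and 462 counts, 7.50-fold lower (-2.91, interval -3.05 to -2.66).

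**Figure D2:**
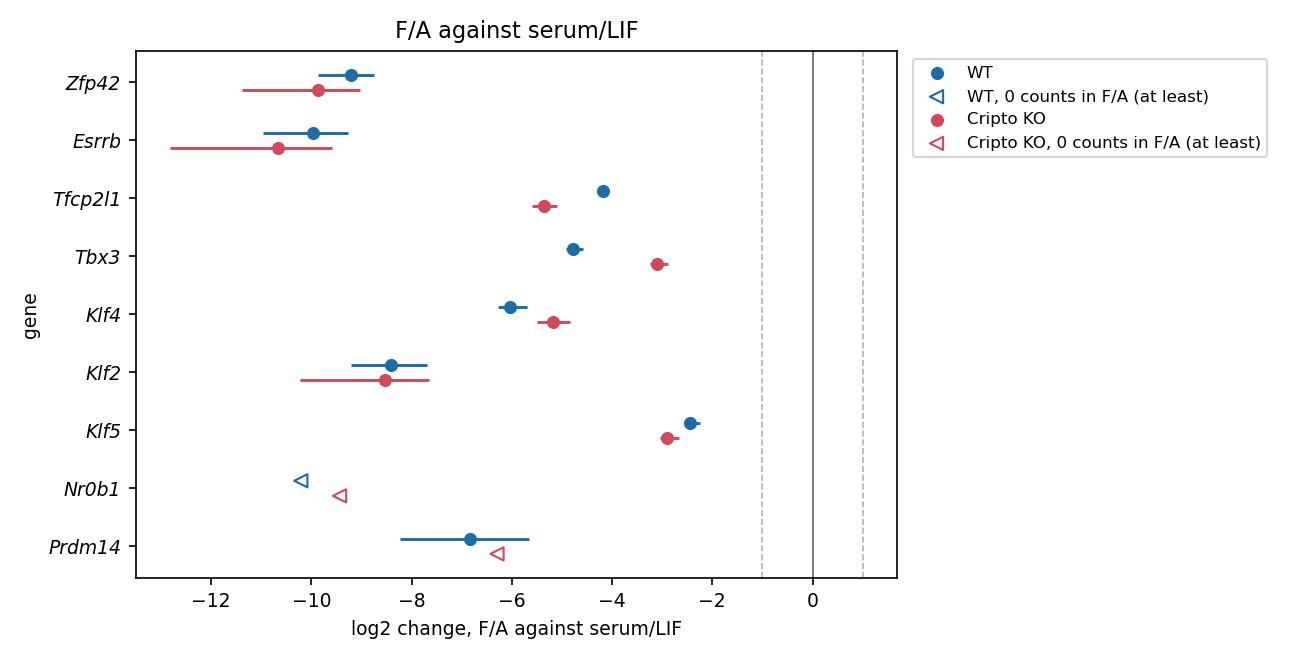
Log2 change of 9 factors in F/A against serum/LIF, in WT (blue) and in Cripto KO cells (red), with 95% counting intervals. Open triangles mark an F/A count of 0, drawn as if it were at the floor, although the legend reads "at least". Dashed lines mark a 2-fold difference, and all points lie to the left of them, from -2.45 for Klf5 in WT to -10.67 for Esrrb in Cripto KO cells.

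Whether loss of Cripto changed the factors within ESC culture was asked with the 2 serum/LIF libraries. No member differed by 2-fold, where 2.73% of all genes were lower and 2.86% higher in Cripto KO cells, and the median of the 9 was -0.18 on the log2 scale against 0 for all genes. Tbx3 differed most, with 509 cpm in WT and 284 cpm in Cripto KO cells (log2 difference -0.85, interval -0.89 to -0.79), followed by Prdm14 with 43.3 and 29.9 cpm (-0.51, interval -0.70 to -0.36). Klf5 (-0.27), Klf4 (-0.26), Zfp42 (-0.18) and Klf2 (-0.12) were slightly lower and Esrrb (0.18) and Nr0b1 (0.17) slightly higher in Cripto KO cells, all with counting intervals that leave out 0, while that of Tfcp2l1 (-0.03, interval -0.07 to 0.01) includes it. For abundant genes the normalized change can lie just outside the counting interval, as for Zfp42 (-0.29 to -0.23) and Esrrb (0.11 to 0.17), because the interval scales counts by the library totals. Dppa3 had a ratio of Cripto KO to WT of 1.38 with an interval of 0.561 to 3.53.

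In F/A the members diverged by genotype. Tfcp2l1 had 37.8 cpm in WT and 16.5 cpm in Cripto KO cells, 2.29-fold lower (log2 difference -1.19, interval -1.48 to -0.92), and Klf5 had 48.8 and 29.4 cpm (-0.73, interval -0.95 to -0.52). Tbx3 and Klf4 lay the other way, Tbx3 with 19.0 cpm in WT and 34.1 cpm in Cripto KO cells (0.83, interval 0.59 to 1.08) and Klf4 with 103 and 158 counts (0.60, interval from 0.13 to just above 1). By quantile-normalized value 2 of the 9 members were lower by at least 2-fold, Tfcp2l1 and Prdm14, and 0 were higher, where 5.69% of all genes were lower and 4.57% higher. The call of Prdm14 rests on 6 counts in WT and 0 in Cripto KO cells, and its counting interval (a ratio of up to 1.64) includes no difference. That of Tfcp2l1, the member with the longest transcript (9269 nucleotides), is lost where changes are centred on genes of like transcript length, when its difference is -0.77.

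Differences in Esrrb (13 and 8 counts, log2 difference -0.51, interval -2.82 to 0.95), Zfp42 (28 and 14 counts, -0.84, interval -2.49 to 0.18) and Klf2 (16 and 12 counts, -0.23, interval -2.10 to 0.97) were not detectable at this depth. Nr0b1 and Dppa3 had 0 counts in both F/A libraries.

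**Figure D3:**
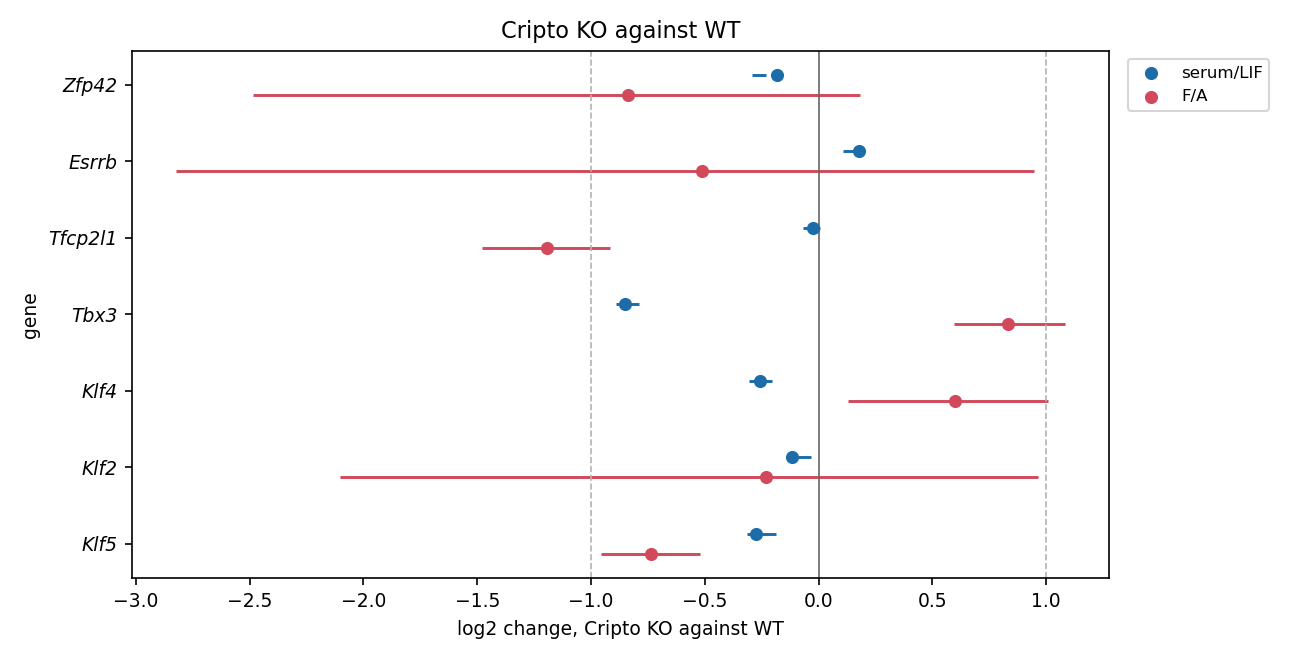
Log2 difference of Cripto KO against WT for 7 factors, in serum/LIF (blue) and in F/A (red), with 95% counting intervals, where dashed lines mark a 2-fold difference. Tbx3 and Klf4 lie left of 0 in serum/LIF and right of 0 in F/A, while Tfcp2l1 lies at -0.03 in serum/LIF and at -1.19 in F/A.

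Set against each other, the 2 transitions differed for Tbx3, Klf4, Tfcp2l1 and Klf5 by more than counting error. The intervals given for these differences are approximate and are not themselves Clopper-Pearson intervals. They are centred on the difference of the normalized changes, and their width combines those of the 2 counting intervals (root of the summed squares). The change of Tbx3 in Cripto KO cells was smaller than in WT by 1.68 on the log2 scale (interval 1.43 to 1.93), and that of Klf4 by 0.86 (interval 0.42 to 1.29). The change of Tfcp2l1 was deeper in Cripto KO cells (difference -1.17, interval -1.45 to -0.88), as was that of Klf5 (-0.46, interval -0.69 to -0.24). The intervals of Esrrb (-0.69), Zfp42 (-0.65) and Klf2 (-0.11) include 0. Over all genes 9.38% had a difference below -1 and 7.68% one above 1, against 2 of the 9 members below (Tfcp2l1 and Prdm14) and 1 above (Tbx3). The difference of Prdm14 (-3.14) rests on setting its count of 0 to 0.5. An interaction cannot be tested with 1 library per condition. The exons of Tbx3 overlap those of Gm2301 on the opposite strand, which had 221, 148, 15 and 22 counts in WT serum/LIF, Cripto KO serum/LIF, WT F/A and Cripto KO F/A, and since the strand setting of the counting is not stated, reads of the pair cannot be told apart.

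**Figure D4:**
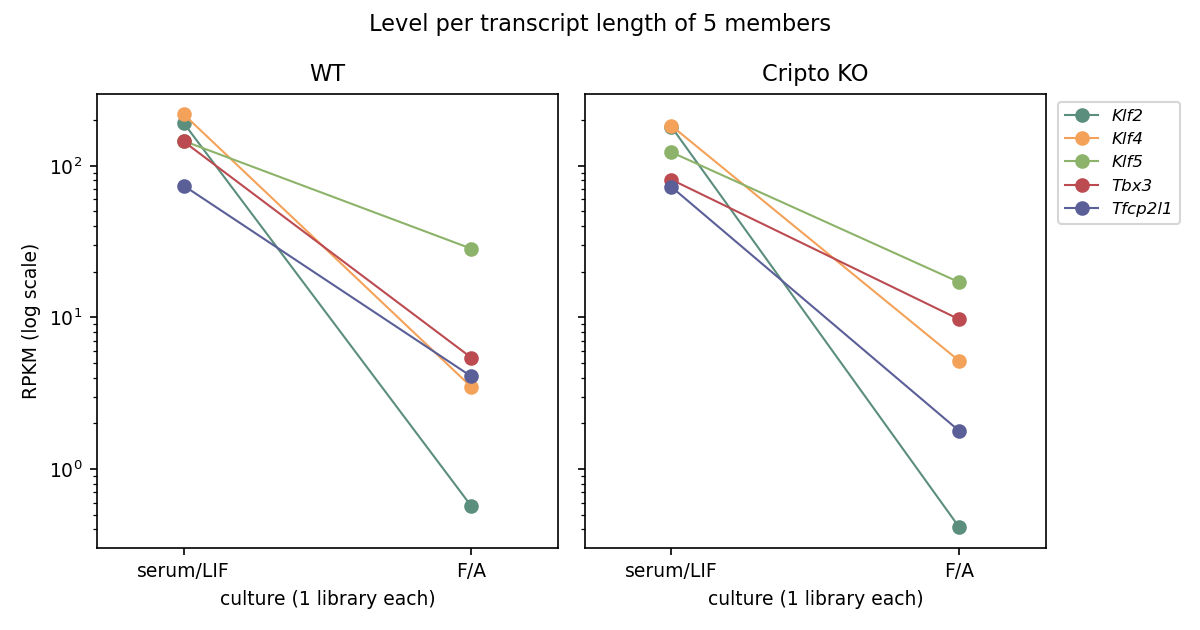
RPKM of 5 factors on a log axis in serum/LIF and F/A, for WT (left) and Cripto KO (right), where each point is 1 library. Klf5 leads in F/A in both genotypes. Tfcp2l1 and Klf4 are level within counting error in WT F/A (4.08 and 3.48), and Tfcp2l1 lies below Klf4 in Cripto KO F/A (1.78 and 5.16). Their order also depends on the transcript lengths used.

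The core pluripotency genes give the scale for these changes. Of 9, 6 were lower and Lin28a, an RNA-binding regulator of let-7, was higher by at least 2-fold in WT F/A (median log2 change -3.67), and 8 were lower and Lin28a higher in Cripto KO F/A (median -4.12). Over all genes, 20.9% were lower and 22.1% higher in WT F/A, and 19.4% and 19.9% in Cripto KO F/A. The same shares stand beside the F/A counts of the lists below. Pou5f1, which encodes Oct4, had 26857, 21995, 1810 and 1216 counts in WT serum/LIF, Cripto KO serum/LIF, WT F/A and Cripto KO F/A, and so had log2 changes of -3.67 (WT) and -4.12 (Cripto KO). Sox2 changed by -4.17 and -4.02, and Nanog by -5.33 and -5.80. Of the 9 naive factors, 8 changed by more than Pou5f1 in WT (all but Klf5) and 7 in Cripto KO cells (all but Klf5 and Tbx3). Nanog, however, changed by more than Klf5, Tbx3 and Tfcp2l1 in both genotypes, and by more than Klf4 in Cripto KO cells. Dppa2, also of the core list, changed by -8.73 in WT (989 and 2 counts), more than Klf2 (-8.41). In Cripto KO cells it went from 1009 counts to 0, so a deep change was not particular to the naive factors. The label of an EpiSC culture, whose cells are known to keep Oct4, thus stood beside a 12.7-fold lower Pou5f1 value in WT. In bulk RNA, fewer cells with a gene on and less RNA per cell cannot be told apart.

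Markers of other cell types moved with the F/A cultures. Summed over the 8 trophoblast markers the level was 55.4 to 83.7 cpm in serum/LIF and 2288 (WT) and 2634 (Cripto KO) cpm in F/A. Of the 7 that passed the filter, 6 were higher by at least 2-fold in each genotype, against 22.1% (WT) and 19.9% (Cripto KO) of all genes. Tfap2c was lower in both, with 1191 and 110 counts in WT serum/LIF and F/A, and 705 and 160 in Cripto KO cells. The defining marker Elf5 had 2 counts in WT F/A, below the floor, and 0 in the other libraries. Cdx2, Gata3, Hand1 and Msx2 were under 1 cpm in both serum/LIF libraries and passed the filter through F/A. So did T, Mixl1, Mesp1, Hand2, Meox1, Sox17 and Foxa2 of the mesoderm and primitive endoderm lists. The counts of higher markers are therefore a description only. The keratin genes Krt8 and Krt18 made up most of the trophoblast sum (1280 and 957 cpm in WT F/A, 1391 and 1028 cpm in Cripto KO F/A). Between the F/A libraries 3 of the 7 were higher by at least 2-fold in Cripto KO cells and 0 lower, against 4.57% and 5.69% of all genes. The 3 were Cdx2 (6.83 cpm in WT and 42.8 cpm in Cripto KO), Hand1 (12.9 and 110 cpm) and Msx2 (131 and 562 counts). Gata3 was level, with 15.6 and 16.0 cpm. The 6 mesoderm markers summed to 2.89 to 3.14 cpm in serum/LIF and to 596 and 436 cpm in F/A (6 of 6 higher in WT and 5 of 6 in Cripto KO), with Hand2 at 0 in serum/LIF. The T gene held 574 of the 596 cpm in WT and 356 of the 436 cpm in Cripto KO cells. Between the F/A libraries 2 of the 6 were lower and 2 higher by at least 2-fold in Cripto KO cells. The shares of all genes were 5.69% lower and 4.57% higher. The lower ones were Mixl1 (121 counts in WT and 36 in Cripto KO F/A) and Tbx6 (52 and 22 counts). The higher ones were Hand2 (5.32 and 37.1 cpm) and Meox1 (2.76 and 37.0 cpm). The 7 primitive endoderm markers summed to 18.0 to 21.0 cpm in serum/LIF and to 314 and 342 cpm in F/A (6 of 7 higher in each). The other, Sox7, had 45 and 20 counts in WT serum/LIF and F/A, and 46 and 10 in Cripto KO cells. Foxa2 (89.3 and 57.2 cpm in WT and Cripto KO F/A) and Sox17 (45.2 and 17.2 cpm) are also EpiSC markers of the study, so the list is not specific. The 6 fibroblast markers summed to 113 and 121 cpm in serum/LIF and to 64.3 cpm in WT and 181 cpm in Cripto KO F/A. Of the 5 that passed the filter, 2 were lower and 2 higher by at least 2-fold in Cripto KO F/A. The lower ones were Thy1 (349 and 28 counts in Cripto KO serum/LIF and F/A) and Dcn (417 and 18). The higher ones were the collagen genes Col1a1 (416 and 1496) and Col3a1 (146 and 610). In WT F/A 2 were lower and 0 higher. Between the F/A libraries 3 of the 5 were higher and 0 lower in Cripto KO cells. The 6 primordial germ cell markers summed to 164 to 221 cpm in serum/LIF and 68.1 to 91.0 cpm in F/A, with Dazl at 0 in F/A. Matched 2-cell-like markers (3 of 5) summed to at most 1.29 cpm. The part of these cell types in the levels of Tbx3, Klf4, Klf5 and Tfcp2l1 in F/A was not tested.

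Other genes associated with the naive state went the way of the members. All 9 (Gbx2, Nr5a2, Tcl1, Tet2, Fbxo15, Dppa5a, Pecam1, Fgf4 and Jam2) were lower by at least 2-fold in WT F/A, the median being -7.71 on the log2 scale, and 8 of 9 in Cripto KO F/A (median -6.81). Dppa5a, an RNA-binding protein of ESCs, had 16948, 10689, 5 and 6 counts in WT serum/LIF, Cripto KO serum/LIF, WT F/A and Cripto KO F/A, and Tcl1, a coactivator of Akt, had 1395, 1438, 1 and 0. Fgf4, the growth factor that drives exit from the naive state, changed by -7.59 in WT and -6.48 in Cripto KO cells. Tet2, a 5-methylcytosine oxidase, changed least in WT, by -3.57. Tcl1 and Dppa5a, under 1 cpm in both F/A libraries, passed the filter through serum/LIF, so the counts of this list are a description only.

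Gbx2, a homeobox gene downstream of Stat3, was the exception in Cripto KO cells. It had 598 and 500 counts in serum/LIF, 43 in WT F/A and 366 in Cripto KO F/A, so that F/A differed from serum/LIF by -3.66 (WT) and -0.51 (Cripto KO) on the log2 scale, with a difference between the F/A libraries of 3.01. Pecam1, an adhesion molecule, had 9 counts in WT F/A and 54 in Cripto KO F/A (2.58), and Jam2, another one, had 23 and 8 (-1.26). These were the 3 of 9 past 2-fold between the F/A libraries, 1 lower and 2 higher, with a median of -0.10, or 0.49 with genes at 0 put at their floor. Over all genes 5.69% were lower and 4.57% higher in Cripto KO F/A. None of the 9 differed by 2-fold in serum/LIF, where 2.73% of all genes were lower and 2.86% higher in Cripto KO cells.

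Of the formative and primed genes none was lower by 2-fold in F/A. Of the 10 that passed the filter, 6 were higher and 0 lower by at least 2-fold in F/A in each genotype, with medians of 1.66 in WT and 1.33 in Cripto KO cells, and 2 of the 10 were below 0 in Cripto KO cells. Otx2, lowest there, had 1307, 1023, 2375 and 678 counts in WT serum/LIF, Cripto KO serum/LIF, WT F/A and Cripto KO F/A (0.95 in WT and -0.61 in Cripto KO cells). Fgf8 was highest in both (from 2 counts in each serum/LIF library to 1256 in WT and 1066 in Cripto KO F/A). Fgf5 and Fgf8, under 1 cpm in both serum/LIF libraries, passed the filter through F/A. Between the F/A libraries 2 of the 10 were lower by at least 2-fold in Cripto KO cells and 0 higher, against 5.69% and 4.57% of all genes. The 2 were Fgf5, with 2206 counts in WT and 394 in Cripto KO cells (-2.54), and Otx2 (-1.84).

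**Figure D5:**
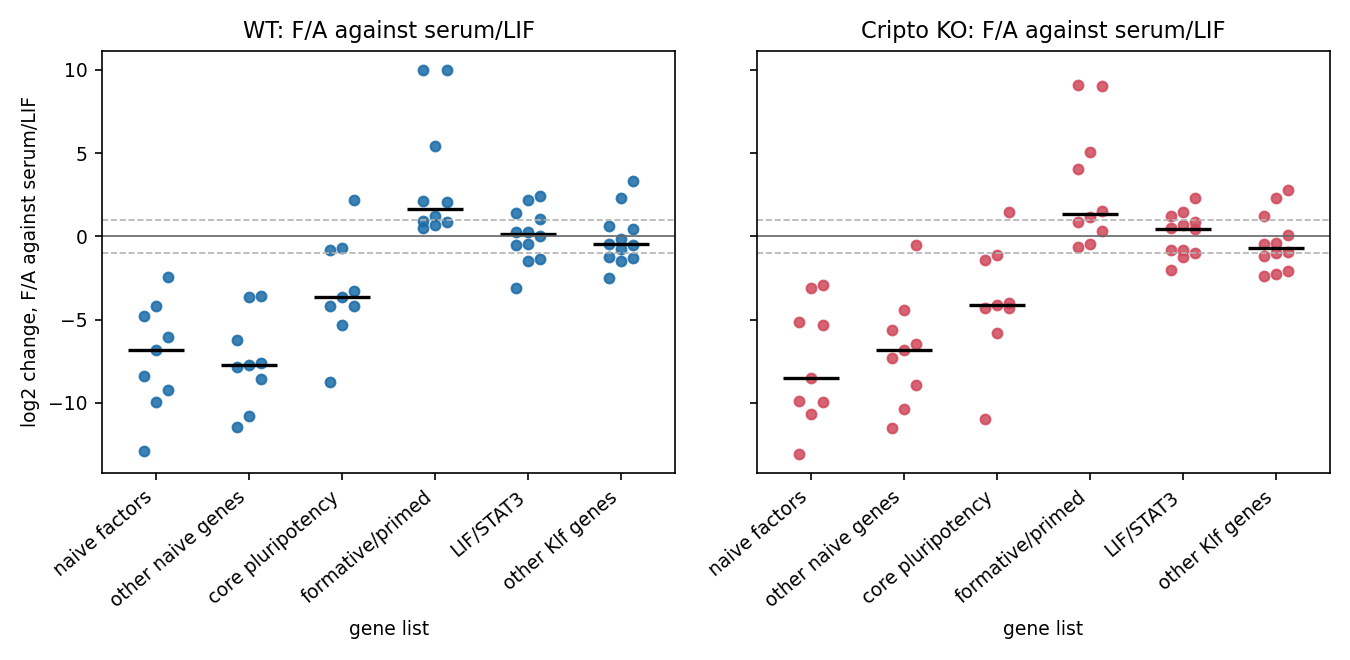
Log2 change in F/A against serum/LIF of each gene that passed the filter in 6 lists, in WT (left) and Cripto KO (right), where a bar marks the median, dashed lines a 2-fold difference, and genes at 0 counts are drawn with 0.5 in place of 0. The medians of the naive factors (-6.84 and -8.52) and of the other naive genes (-7.71 and -6.81) lie below those of the core genes (-3.67 and -4.12). Single genes of these lists overlap, and the formative and primed genes lie above 0 in WT.

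The LIF and STAT3 pathway, an input to the network, showed no common direction. Of 12 genes of the LIF and STAT3 pathway, 3 were lower and 4 higher by at least 2-fold in WT F/A (median log2 change 0.13). In Cripto KO F/A 3 were lower and 3 higher (median 0.47). Over all genes 20.9% were lower and 22.1% higher in WT F/A, and 19.4% and 19.9% in Cripto KO F/A. Between genotypes 0 of 12 differed by 2-fold in either culture, where at most 5.69% of all genes were lower and 4.57% higher. Socs3, the feedback inhibitor induced by Stat3, had 2977, 2253, 320 and 554 counts in WT serum/LIF, Cripto KO serum/LIF, WT F/A and Cripto KO F/A (log2 changes of -3.10 in WT and -2.03 in Cripto KO cells). Stat3 itself changed by -1.46 and -1.22, and the receptor gene Lifr by -0.46 and -1.03. Jak2, the kinase, was higher in F/A by 2.20 and 2.28, and Myc by 2.41 and 1.48.

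Of 6 Wnt pathway genes, 4 were higher and 0 lower by at least 2-fold in F/A in each genotype. Over all genes 22.1% were higher in WT F/A and 19.9% in Cripto KO F/A. Sp5, a direct target of Wnt signalling, had 10, 20, 1001 and 1680 counts in WT serum/LIF, Cripto KO serum/LIF, WT F/A and Cripto KO F/A. Tcf7l1, the repressor of Esrrb and Klf2 in ESCs, was the lowest of the list, with log2 changes of 0.05 in WT and -0.79 in Cripto KO cells.

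The rest of the Klf family showed no common direction. Of the 12 other Klf genes that passed the filter, 4 were lower and 2 higher by at least 2-fold in WT F/A (median log2 change -0.47), and 4 lower and 3 higher in Cripto KO F/A (median -0.70). Over all genes 20.9% were lower and 22.1% higher in WT F/A, and 19.4% and 19.9% in Cripto KO F/A. Klf6 had 544, 775, 4871 and 3748 counts in WT serum/LIF, Cripto KO serum/LIF, WT F/A and Cripto KO F/A (3.30 and 2.29), and Klf7 changed by 2.28 and 1.20. Klf14, with few counts (5, 5, 2 and 28 in the same order), was higher in Cripto KO F/A only (2.76). Its difference between the F/A libraries (3.84) was the largest of the list. Klf15 (-2.48 and -2.25), Klf9 (-1.33 and -2.41), Klf8 (-1.49 and -2.10) and Klf3 (-1.21 and -1.18) were lower. Each of these decreases is smaller than those of Klf2 and Klf4, and only Klf15 in WT reached that of Klf5. Klf17, known from human naive cells, had 9 and 10 counts in serum/LIF and 0 in both F/A libraries.

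By likeness of pattern over the 4 libraries, taken as the root mean square difference of centred log2 values over 12756 genes with a mean normalized value of at least 50, the nearest gene to Klf5 was Pcyt1b, an enzyme of phosphatidylcholine synthesis (0.0150), and that to Klf4 was Ephx2, an epoxide hydrolase (0.0873). Klf2 lay nearest to Dnmt3l, the catalytically inactive partner of the de novo methyltransferases (0.117), with 4926, 4522, 13 and 8 counts. Prdm14 lay nearest to Mov10l1, an RNA helicase of the piRNA pathway (0.155), Tbx3 to Il34, a ligand of the Csf1 receptor (0.152), Tfcp2l1 to Treml2 (0.113), Zfp42 to C330046G13Rik (0.106), Esrrb to Syce1, a synaptonemal complex protein (0.224), and Nr0b1 to Sohlh2, a germ cell bHLH factor (0.416), which also had 0 counts in F/A. With 4 libraries such likeness is a description of these values.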

How the data were processed

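RNA of 4 cultures was sequenced, with 1 library per condition, grouped by the sample titles. The authors mapped the read pairs to mouse build mm9 (NCBIM37) using TopHat2 2.0.13 and counted them per gene with HTSeq 0.6.1p1 in intersection-nonempty mode, and they deposited these raw counts. The strand option is not given in the sources used here. The authors also deposited a normalized signal, the full quantile-normalized counts of the genes that passed a proportion filter at 1 cpm. Their calls used simulated replicates, which were not computed here.

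Symbols, coordinates and transcript lengths came from a GENCODE annotation of the same build, which named 37205 of 37620 genes. The normalized values gave the log2 changes, a value of 0 being set to 0.5. Ratios, cpm and RPKM came from the raw counts and library totals (15230856 to 17315442 counts), with 95% Clopper-Pearson intervals (scipy 1.17.1). For a fold, a gene at 0 was put at a floor of 3 counts (6 in Cripto KO F/A), which is not an interval limit. Genes were called at 2-fold and compared with the share of all 15462 filtered genes past that fold. Filtered genes under 1 cpm in both libraries of 1 culture passed through the other culture, so counts over the lists are a description only. Repeated stretches were sought by matching every 50 and 100 bases of the longest coding transcript to the genome, and promoter letters in the 250 bases before RefSeq starts. The computation was tested on simulated data.

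The members and gene lists were chosen with earlier results of these data known. The text names all 10 members, any gene of the core, other naive, LIF and STAT3 and Klf lists, the extremes of the other lists, and the nearest patterns (5 to the members' median, 1 to each member). Alternatives were scaling by library totals, edgeR 4.0.16 TMM factors or DESeq2 1.42.0 size factors, 5 added to each value, a minimum mean of 50 counts, no filter, and a 3-fold threshold. Changes centred on the running median of 501 genes of like transcript length were added after seeing the data.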

Additional observations from a re-analysis of the deposited data

Results flagged for a closer look

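The difference between Cripto KO and WT pointed one way in serum/LIF and the other way in F/A for 3 members. Tbx3 was lower in Cripto KO cells in serum/LIF (log2 difference -0.85) and higher in F/A (0.83), and both counting intervals leave out 0. Klf4 was lower in serum/LIF (-0.26) and higher in F/A (0.60), again with intervals that leave out 0. Esrrb was higher in serum/LIF (0.18) and lower in F/A (-0.51), where it had 13 and 8 counts and the interval includes no difference. With 1 library in each condition, the difference between the cultures was not tested for any of them.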

How the results depend on the processing

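Across 45 results under 7 alternative settings besides the 3-fold threshold (315 values), 0 changed sign, and all 9 members stayed lower by at least 2-fold in F/A in both genotypes under every setting run. The minimum mean of 50 counts only removes genes and removed no filtered member, so its 45 values could not change. Library totals, TMM factors and size factors are nearly alike here and moved no log2 change by more than 0.276. Under them the sign of the changes in F/A against serum/LIF, all -2.45 or lower, was not at stake. Nr0b1, at 0 counts in both F/A libraries, could not change sign between them. With 5 added to every normalized value, the median log2 change of the members in F/A against serum/LIF was -6.00 in place of -6.84 in WT and -6.67 in place of -8.52 in Cripto KO cells. Without a filter, with all 10 members, these medians were -6.32 and -7.03. The median difference of Cripto KO against WT in serum/LIF was -0.25 in place of -0.18 with counts scaled by library totals. The number of members lower in Cripto KO than in WT F/A was 1 in place of 2 at a 3-fold threshold and with changes centred on genes of like transcript length, where Tfcp2l1 stood at -0.77, and 3 with counts scaled by library totals, TMM factors or size factors and without a filter, where Zfp42 was at -1.02 to -1.05 in place of -0.84. The number of members with a deeper change in Cripto KO cells, by at least 1 on the log2 scale, was 1 in place of 2 with 5 added (Prdm14 at -0.67), at the stricter threshold and with the length centring (Tfcp2l1 at -0.61). The centring was chosen after seeing the data. Where 5 was added, the smaller size follows from the setting for genes with few F/A counts, and for the others the cause was not tested. No paired analysis was possible because each condition had 1 library, with no replicate to block on or to leave out. Depth limits Esrrb, Zfp42, Klf2, Prdm14, Nr0b1 and Dppa3 in F/A, all at 28 counts or fewer.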

Other observations

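Relatives of the other members (Esrr, CP2 and grainyhead, Yy, Nr0b, T-box and Prdm genes) showed no common direction. Of the 19 of 23 that passed the filter, 3 were lower and 5 higher by at least 2-fold in WT F/A (median log2 change -0.03), and 4 lower and 4 higher in Cripto KO F/A (median -0.24). Over all genes 20.9% were lower and 22.1% higher in WT F/A, and 19.4% and 19.9% in Cripto KO F/A. Between the F/A libraries these shares were 5.69% lower and 4.57% higher in Cripto KO cells. The T-box gene Tbx20, a cardiac regulator, was highest in both (7.70 in WT, from 5 to 766 counts, and 6.93 in Cripto KO cells, from 6 to 668), and Prdm16, a regulator of brown fat and blood stem cells, was lowest in both (-3.55, from 229 to 17 counts, and -4.63, from 182 to 6). Of the 19 relatives, 3 were lower and 2 higher by at least 2-fold in Cripto KO than in WT F/A. Prdm16 was lowest (-1.24) and Tbx5, a T-box gene of heart and forelimb, highest (1.77, with 12 and 40 counts). Yy2 and Nr0b2 had 0 counts in all libraries.

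The genes nearest to the median pattern of the members were Gm13051 (root mean square log2 difference 0.212, with 972, 827, 6 and 2 counts in WT serum/LIF, Cripto KO serum/LIF, WT F/A and Cripto KO F/A), D14Ertd668e (0.234), Ly6g6e (0.288), Pla2g4e, a phospholipase (0.309), and Fcgr2b, an inhibitory Fc receptor (0.310).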
